A study of Mus musculus with 6 samples.

Results

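The 9 genes studied here of the Notch pathway were Notch1, Notch2, Hes1, Hes5, Hey1, Dll1, Dll3, Jag1 and Rbpj. They were followed in FoxJ1-EGFP-positive domains of the early postnatal mouse brain. They were taken from a list by gene symbol, each with its brightest single-gene probe set, and all 9 were found among the 19938 genes measured. RNA came from EGFP-positive domains that were cut out by laser capture from brains carrying the FoxJ1-EGFP reporter, in which green fluorescence marks cells with an active Foxj1 promoter. The arrays were made from FoxJ1 null and wildtype mice, all with the reporter, at postnatal days 1, 7 and 14, with 1 array for each genotype and age. FoxJ1 null mice lack the forkhead factor of the motile cilium programme. Whether animals were pooled for an array is not given in the labels. With 1 array for each genotype and age there are no replicates. The spread behind the p-values is therefore the departure of the 2 genotypes from parallel age courses, shared in part over all genes. A real genotype by age difference counts in it as noise. In the test of slopes it is the departure from straight lines. The small number of arrays limits the precision.

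Notch is a receptor pathway between touching cells. A ligand of the Delta or Jagged family on one cell binds a Notch receptor on its neighbour, the receptor is cleaved, and its intracellular part enters the nucleus and joins the DNA-binding protein RBPJ. The complex turns on Hes and Hey genes, whose proteins are basic helix-loop-helix repressors that hold back proneural genes. In the ventricular zone, Notch signalling keeps radial glia and neural stem cells undifferentiated, and it restrains the step at which a radial glial cell becomes a multiciliated ependymal cell.

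The RBPJ protein recognises sites with the core TGGGAA, and the windows around the gene starts were searched for these letters on both strands. The RefSeq promoter table (GRCm38.p6) held 9 windows for 7 of the members, each with 250 bases before and 50 after a gene start. No window was used for Hes1 and Hey1. The core was found in 3 of the 9 windows, 1 of Hes5 and 2 overlapping ones of Rbpj, and in 25.6% of all 32851 windows of the table. At least 2 cores were found in 3.79% of all windows, in the Hes5 window and in 1 of the Rbpj windows. Those 2 windows are shown because they are the member windows with more than 1 core, one in a target gene of the pathway and the other in the gene of the factor itself. Both lie on the plus strand, and capitals mark the core as read on either strand. A match of letters is a description of the window and not a measured binding site.
Hes5, chr4:154960673-154960972: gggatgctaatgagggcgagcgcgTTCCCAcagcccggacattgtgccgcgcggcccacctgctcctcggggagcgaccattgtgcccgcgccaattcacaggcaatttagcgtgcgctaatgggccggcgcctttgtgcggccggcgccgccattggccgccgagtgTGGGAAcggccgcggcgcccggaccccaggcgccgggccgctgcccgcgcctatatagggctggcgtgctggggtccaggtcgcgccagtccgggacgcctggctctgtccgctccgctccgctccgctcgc
Rbpj, chr5:53590096-53590395: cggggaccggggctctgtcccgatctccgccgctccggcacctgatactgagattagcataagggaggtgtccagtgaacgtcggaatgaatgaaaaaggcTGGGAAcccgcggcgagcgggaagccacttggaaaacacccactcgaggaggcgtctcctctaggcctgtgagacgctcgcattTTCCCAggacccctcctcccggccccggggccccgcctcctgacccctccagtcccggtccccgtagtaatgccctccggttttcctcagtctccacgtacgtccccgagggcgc

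The cores of Hes5 begin at -226 (antisense) and -82 (sense) from the gene start, and those of Rbpj at -149 (sense) and -65 (antisense). The windows of Notch1, Notch2, Dll1, Dll3 and Jag1 do not hold these letters, which says nothing of RBPJ at those genes.

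The targeted gene and the make-up of the arrays were checked before the members. At days 1, 7 and 14, Foxj1 read 6.89, 6.95 and 6.90 in the null, against 7.68, 7.72 and 7.24 in the wildtype, a difference that missed the threshold (limma, adjusted p = 0.0573). Whether its probe set lies in the deleted part of the gene was not checked here. Levels here and below are log2 values after RMA. The series is titled as male mice, but Xist, the transcript of the inactive X, read 12.35 on the null day 7 array and 12.40 on the wildtype day 1 array, and at most 5.83 on the other 4. Those 2 arrays go against the label, so the calls below are also given, singly or as counts, in a fit without them and with age linear. They also make the null and wildtype arrays unlike in Xist at days 1 and 7, in opposite directions. Genotype and sex therefore cannot be told apart at those ages, and only the day 14 pair is alike. Over all ages each genotype holds 1 of the 2 arrays. Days 1 and 7 each hold 1 of them and day 14 holds none. Differences of day 14 from the earlier ages are therefore also mixed in part with sex. Ependymal markers averaged 8.48 to 8.55 on the null arrays and 9.22 to 9.34 on the wildtype arrays. Of the 10, 4 were called lower in the null, also 4 without the 2 arrays. With all arrays these were Ak7 (-1.99), Tmem212 (-1.73), Dynlrb2 (-1.07) and Ccdc153 (-1.03). Foxj1 (-0.63), Rarres2 (-0.47), S100b (-0.26), Nnat (-0.20), Cd24a (-0.12) and Vim (0.01) were not called, so the list did not fall evenly. Choroid plexus markers averaged 8.21 to 8.72 on the null arrays and 9.05 to 9.21 on the wildtype arrays, with 3 of 10 called lower and 4 without the 2 arrays. Neuroblast markers averaged 10.51 to 11.25 on the null arrays and 10.71 to 11.22 on the wildtype arrays. Neuron markers averaged 10.62 to 11.48 on the null and 10.70 to 11.51 on the wildtype arrays. Astrocyte markers averaged 10.00 to 11.09 and 10.28 to 11.08. The levels of the members are therefore those of the captured domains and not of ependymal cells alone. In bulk tissue such as this, fewer cells of a type and less RNA per cell cannot be told apart.

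Between the genotypes no Notch pathway gene was called. Of the 9 members 0 passed in the limma fit (134 of all genes, 0.672%, were called). At an unadjusted p under 0.05, 0 members passed, beside 5.92% of all genes, so a count of 0 is near the background. The median difference of the members was 0.02, FoxJ1 null minus wildtype, beside -0.01 over all genes. The 18 alternative settings, which come to 14 distinct fits, called 0 members as well. The fit used genotype with age as a 3-level factor, and every member had an adjusted p of 1.00. All intervals below are 95% intervals of the fitted difference.

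Among the receptors, Notch1 read 10.02, 9.58 and 9.45 at days 1, 7 and 14 in the null, against 9.92, 9.65 and 9.24 in the wildtype. The null array was above the wildtype at days 1 and 14 and below it at day 7, a mean difference of 0.08 ± 0.14 (SD, n = 3 pairs of arrays; interval -0.16 to 0.31). Notch2, a further receptor of radial glia, read 9.95, 9.74 and 9.98 in the null, against 10.13, 9.99 and 9.71 in the wildtype. Its difference turned from negative at days 1 and 7 to positive at day 14 and averaged -0.05 ± 0.29 (interval -0.33 to 0.23).

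The ligands were close between the genotypes. Dll1, the Delta ligand of differentiating progenitors, differed by 0.02 ± 0.09 (interval -0.21 to 0.25). Dll3, a divergent Delta protein that acts on Notch inside the cell that makes it, differed by 0.04 ± 0.09 (interval -0.19 to 0.26). Jag1, the Jagged ligand made by ependymal and stem cells of the ventricle wall, differed by 0.07 ± 0.23 (interval -0.18 to 0.33). Rbpj, the nuclear partner of the cleaved receptor, had the difference nearest to 0 of the 9, at 0.00 ± 0.08 (interval -0.23 to 0.23). For each of these 4 genes the sign changed between ages.

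Of the 9 members, the target gene Hes1 had the widest spread of its difference over the ages. Its mean level, like those of Dll1 and Dll3, lay below the median of all genes. Hes1, the repressor that oscillates in neural progenitors, read 7.98, 8.27 and 8.13 at days 1, 7 and 14 in the null, against 8.34, 8.21 and 7.81 in the wildtype. The null array was thus lower at day 1 by 0.36 and higher at day 14 by 0.32, with a mean of 0.01 ± 0.35 (interval -0.29 to 0.31). Hes5, the most Notch-dependent of the Hes genes in radial glia, read 9.22, 9.14 and 9.14 in the null, against 9.47, 9.32 and 8.99 in the wildtype. Its null values lay within 0.09 of each other while the wildtype values spanned 0.48, and the mean difference was -0.09 ± 0.21 (interval -0.34 to 0.16). Hey1, a Hes-related repressor, read 8.87, 8.78 and 9.50 in the null, against 8.61, 8.82 and 9.25 in the wildtype. It had the largest mean, 0.16 ± 0.17 (interval -0.08 to 0.40), with the null array higher at days 1 and 14 and lower at day 7.

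**Figure D1:**
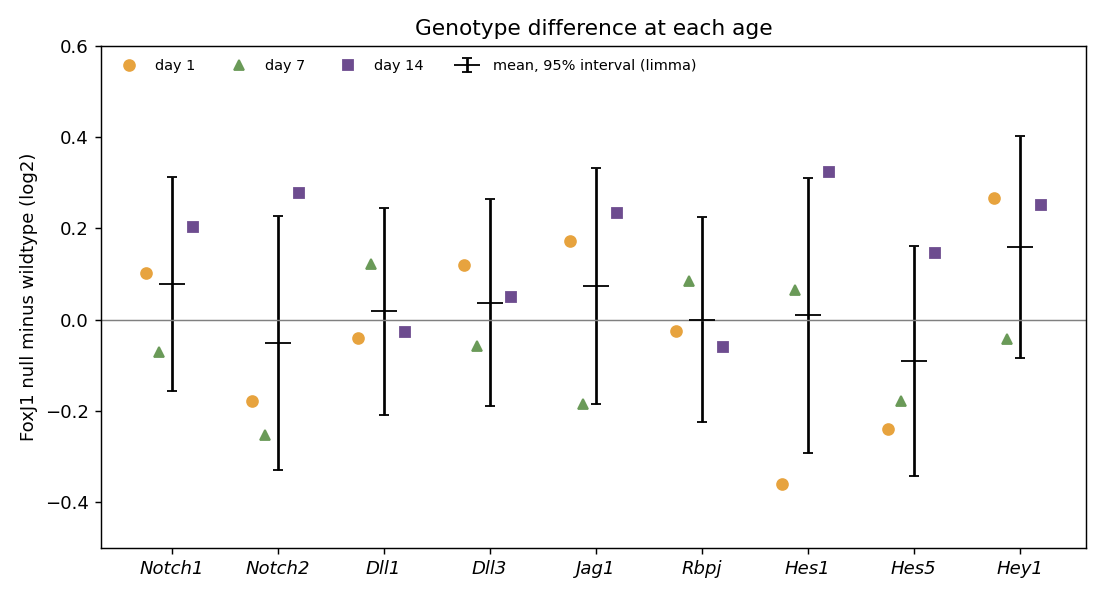
Difference in log2 level between the FoxJ1 null and the wildtype array at days 1, 7 and 14 (points) for each member, with the fitted mean and its 95% interval (black). Every interval includes 0, and no member has the same sign at all 3 ages.

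None of the 9 members had the same sign at all 3 ages, whereas 23.8% of all genes did. At day 14 the null array was higher for 7 members and lower for Dll1 and Rbpj, with a median of 0.20 beside -0.02 over all genes. At day 7 it was higher for 3 and lower for 6 (median -0.06, over all genes -0.06), and at day 1 higher for 4 and lower for 5 (median -0.02, over all genes 0.03). Each age rests on 1 null and 1 wildtype array and was not tested. The pairs of days 1 and 7 were unlike in Xist, in opposite directions, so their signs cannot be told apart from sex. Markers of some other cells also stood higher on the null array of day 14, with 8 of 8 microglia genes (median 0.55) and 8 of 9 endothelial and mural genes (0.17). So did 6 of 8 astrocyte genes (0.07) and 5 of 9 radial glia genes (0.03). At day 1 the null array was higher for 2, 1, 2 and 0 of these, with medians of -0.17, -0.46, -0.22 and -0.31. Other lists went the other way at day 14. The null array was lower for 10 of 10 choroid plexus (median -0.81), 8 of 10 ependymal (-0.37) and 12 of 13 neuroblast genes (-0.16). It was also lower for 5 of 9 oligodendrocyte (-0.28) and 7 of 11 proliferation genes (-0.05), and higher for 4 of 7 neuron genes (0.04). The part of all these lists in the members' differences was not tested.

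Between day 14 and day 1, Notch1 was called lower and Hey1 was called higher, and the other 7 members, all with negative differences, missed the threshold. A gene was called lower in 6.29% of cases over all genes and higher in 7.5%, so 1 of 9 in each direction is near the background. The median of the members was -0.28, beside -0.01 over all genes. At an unadjusted p under 0.05, 5 of the 9 passed, as did 27.2% of all genes.

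Notch1 read 9.45 on the null and 9.24 on the wildtype array of day 14, against 10.02 and 9.92 at day 1, with 9.58 and 9.65 at day 7 between them. The arrays of the 3 ages did not overlap. How many of all genes keep the 3 ages apart was not counted, but 29.4% had both day 14 arrays below both day 1 arrays. Notch1 was 1.54-fold lower at day 14 than at day 1 (-0.63, SE 0.13, adjusted p = 0.0117). The drop was 0.58 in the null pair and 0.68 in the wildtype pair. Without the 2 arrays with high Xist the difference was -0.62 and stood at the threshold (adjusted p = 0.05001), and without the wildtype day 14 array it was -0.53 (adjusted p = 0.112). Notch2 averaged 9.84 at day 14 and 10.04 at day 1, its ages overlapped, and the difference of -0.20 did not pass (adjusted p = 0.471).

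Hey1 read 9.50 on the null and 9.25 on the wildtype array of day 14, against 8.87 and 8.61 at day 1 and 8.78 and 8.82 at day 7. Both day 14 arrays lay above all 4 earlier ones. Over all genes 25.5% had both day 14 arrays above both day 1 arrays. Hey1 was 1.55-fold higher at day 14 than at day 1 (0.63, SE 0.13, adjusted p = 0.0131) and rose by 0.62 in the null pair and 0.64 in the wildtype pair. Hey1 was the single member called between days 14 and 7, at 0.57 (SE 0.13, adjusted p = 0.0455), where 2.34% of all genes were called higher and 1.87% lower. This comparison shares its day 14 arrays with the one before. The call against day 1 held without the 2 arrays with high Xist and with age linear (0.66, adjusted p = 0.0404). It was lost without the null day 14 array (0.56, adjusted p = 0.119) or the wildtype day 1 array (0.55, adjusted p = 0.0502). The call against day 7 was lost in 5 of 16 distinct fits, among them Xist as a covariate (0.50, adjusted p = 0.0862) and the fits without the null day 7 (0.42, adjusted p = 0.271), null day 14 (0.50, adjusted p = 0.301) or wildtype day 14 array (0.64, adjusted p = 0.103). Without the 2 arrays with high Xist and with age linear it was 0.36 (adjusted p = 0.0404), a fit in which all age steps are 1 test.

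**Figure D2:**
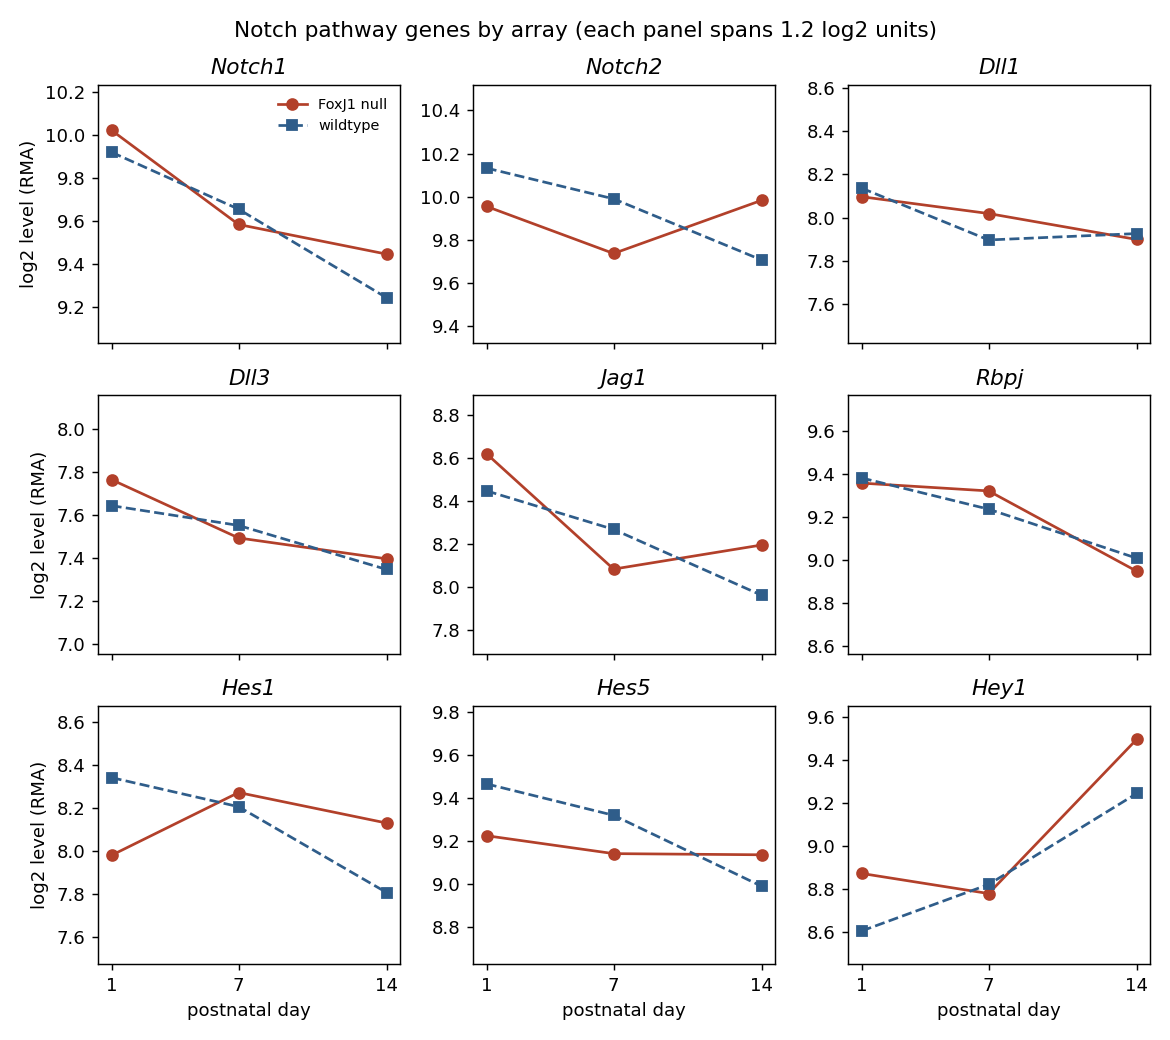
Log2 level of each member on each array against postnatal day, FoxJ1 null (circles, solid lines) and wildtype (squares, dashed lines), 1 array per point; every panel spans the same range. Notch1 falls with age in both genotypes, Hey1 lies highest at day 14, and the wildtype lines of Hes1, Hes5 and Notch2 fall while the null lines do not fall in step.

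The ligands were lower at day 14 without passing the test. Jag1 read 8.20 on the null and 7.96 on the wildtype array of day 14 and 8.62 and 8.45 at day 1, a difference of -0.45 (SE 0.14, adjusted p = 0.0627). At day 7 Jag1 read 8.08 on the null and 8.27 on the wildtype array, below both day 1 arrays. Jag1 was called in 6 of 16 distinct alternative fits, lower at day 14 in each (-0.50 with each array centred on its median, adjusted p = 0.0318). Dll3 averaged 7.37 at day 14 and 7.70 at day 1 (-0.33, adjusted p = 0.114), and Dll1 averaged 7.91 and 8.12 (-0.20, adjusted p = 0.343). For all 3 ligands the day 14 arrays lay below both day 1 arrays.

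Rbpj read 8.95 on the null and 9.01 on the wildtype array of day 14, against 9.36 and 9.38 at day 1, so that the genotypes matched closely at both ages. The difference was -0.39 (SE 0.12, adjusted p = 0.0655), and it was called lower in 3 of 16 distinct fits. Rbpj is the single member with a further probe set, a dimmer one that went the other way, at 6.03 and 6.30 on the null and wildtype arrays of day 14 and 5.85 and 6.05 at day 1. With the mean of both probe sets the difference was -0.09 (adjusted p = 0.789).

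The Hes genes did not pass. Hes5 averaged 9.06 at day 14 and 9.35 at day 1 (-0.28, adjusted p = 0.228), with a drop of 0.09 in the null pair and 0.48 in the wildtype pair. Hes1 averaged 7.97 at day 14 and 8.16 at day 1 (-0.19, adjusted p = 0.528), and its pairs went opposite ways, 0.15 in the null and -0.53 in the wildtype. Thus the 2 Hes genes and Hey1, all targets of the pathway, did not share a direction. The day 14 arrays lay below both day 1 arrays for 6 of the 9 members, above them for 1, and overlapped for 2, Notch2 and Hes1. Over all genes these shares were 29.4% below and 25.5% above.

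**Figure D3:**
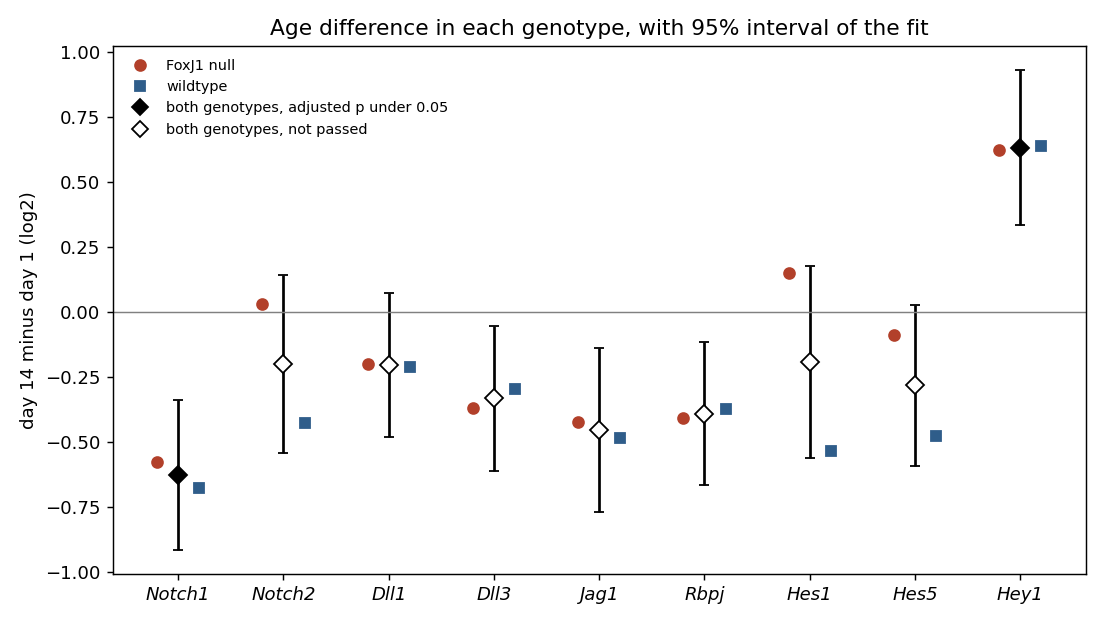
Day 14 minus day 1 in log2 level for the FoxJ1 null pair (circles) and the wildtype pair (squares) of each member, with the fitted difference over both genotypes (diamonds, filled where adjusted p is under 0.05) and its 95% interval. Notch1 is the filled diamond below 0 and Hey1 the one above it, and the pairs stand farthest apart for Hes1 and Notch2.

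The first week brought no call. Between days 7 and 1, 0 of 9 members passed in limma, where 12 genes in all, 0.0602%, were called, and 2 members had an unadjusted p under 0.05, as did 10.6% of all genes. These were Jag1 (-0.36, adjusted p = 0.429) and Notch1 (-0.35, adjusted p = 0.394). The fitted step of Hey1 was 0.06, made of -0.09 in the null pair and 0.22 in the wildtype pair. Without the null day 7 array, which is one of the 2 with high Xist, it was 0.21 (adjusted p = 0.874). In the fit without both such arrays and with age linear it was 0.30 (adjusted p = 0.0404), the same single test of age as above.

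Whether the age course differed between the genotypes was tested as a difference of slopes over the 13 days, FoxJ1 null minus wildtype. None of the 9 members passed in limma, nor did any gene (0 of 19938, 0%), while 596 genes and 1 member had an unadjusted p under 0.05. That member was Hes1, whose slope difference amounted to 0.68 over the 13 days (SE 0.29, interval 0.02 to 1.34, adjusted p = 1.00). Notch2 followed with 0.47 (interval -0.18 to 1.13) and Hes5 with 0.39 (interval -0.21 to 0.99). Positive slope differences were also held by 9 of 9 endothelial and mural genes (median 0.53), 8 of 8 microglia genes (0.69) and 9 of 9 radial glia genes (0.30). So they were by 10 of 11 proliferation (0.28), 6 of 8 astrocyte (0.19) and 5 of 7 neuron genes (0.16). Other marker lists did not share this sign. Of neuroblast genes 12 of 13 were negative (-0.18), and of oligodendrocyte genes 5 of 9 (-0.22). Ependymal genes (-0.03) and choroid plexus genes (0.00) had 5 of each sign. Over all genes the median was -0.05. The pairs of days 1 and 7 were unlike in Xist here too. The part of these lists in the members' values was not tested. The wildtype values of Hes1, Notch2 and Hes5 fell over the ages by 0.53, 0.43 and 0.48 between days 1 and 14. The fitted slope differences of Hey1 and Dll1 were both 0.00, with intervals of -0.75 to 0.75 and -0.61 to 0.62.

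The rest of the pathway was read from a wider list of 81 genes chosen by role, of which 77 were measured. Between the genotypes 0 of 77 passed in limma and 1, Foxj1 itself, had an unadjusted p under 0.05. With each array centred on its median, 1 of the 77 was called, lower in the null. The count was also 1 with each probe set on its own, with an intensity trend and with a robust prior. It stayed 0 in others, among them further quantile normalization and the fit without the 2 arrays with high Xist. After Foxj1, the largest difference was that of Neurod1, a neuronal differentiation factor, at 0.34 (adjusted p = 0.945). The 12 regulators of multiciliation on the list, Foxj1 among them, all had negative values, as did 10928 of all 19938 genes. Their median was -0.03, beside -0.01 over all genes, and the value nearest to 0 was -0.004. Of these regulators 0 passed (1, Foxj1, at an unadjusted p under 0.05).

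Between days 14 and 1, 11 of the 77 were lower, 1 was higher and 65 did not pass, with a median of -0.15. Over all genes 6.29% were lower and 7.5% higher, with a median of -0.01, and these shares stand behind the counts by role below as well. Numb, an endocytic adaptor that inhibits Notch, was the one that rose, with 9.29 on the null and 9.56 on the wildtype array of day 14 against 8.64 and 8.77 at day 1 (0.71, SE 0.13, adjusted p = 0.0056). Neurod1 fell most, by 1.14 (adjusted p = 0.00787), with a drop of 0.64 in the null pair and 1.64 in the wildtype pair, and it stood at -0.67 without the wildtype day 14 array (adjusted p = 0.0357). The glial factor Sox9 fell by 0.70 (adjusted p = 0.0131). The Deltex ubiquitin ligases Dtx4 and Dtx1, which act on the receptor, fell by 0.62 and 0.61. The Groucho corepressors Tle3 and Tle1, partners of HES proteins, fell by 0.61 and 0.59. Tle3 stood at -0.30 without the null day 1 array (adjusted p = 0.42) and at -0.92 without the wildtype day 1 array (adjusted p = 0.00311). Neurod4, the fringe glycosyltransferase Mfng, the HES antagonist Hes6, the gamma-secretase subunit Aph1b and the RBPJ corepressor Spen completed the 11, at -0.55 to -0.46, and these 5 lay outside the naming rule for this comparison and were named after their values were seen. Without the 2 arrays with high Xist and with age linear, 5 of 77 were called, 3 lower and 2 higher. These were Numb, Dtx1, Dtx4, Tle3 and the multiciliation regulator Gmnc, which was higher there and not called with all arrays, while Neurod1 (-1.08, adjusted p = 0.0924), Sox9 (-0.63, adjusted p = 0.087) and Tle1 (-0.62, adjusted p = 0.0513) were not. Apart from Numb and Neurod1, each of the 12 lost its call without at least 1 single array. The count was 4, 4 and 3 without the null day 1, the null day 14 and the wildtype day 14 array.

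**Figure D4:**
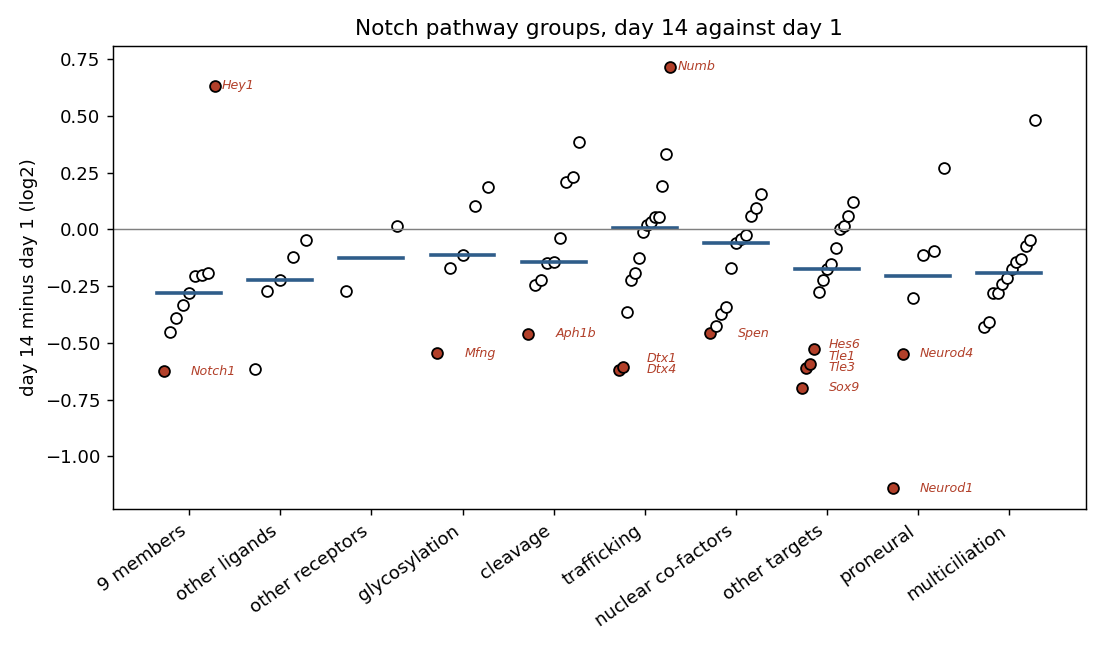
Day 14 minus day 1 in log2 level for each measured gene of the members and of the wider list, by role; filled points with names had an adjusted p under 0.05 and blue bars are group medians. Numb and Hey1 are the named points above 0, and the trafficking group has a median of 0.00.

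By role, no other ligand and no other receptor passed between days 14 and 1, in groups of 5 and 2. One of 5 glycosylation genes, 1 of 9 cleavage genes, 2 of 14 trafficking genes, 1 of 11 nuclear co-factors, 4 of 13 other targets and HES-related genes and 2 of 6 proneural genes were lower. Dlk1, a Notch ligand relative, had the largest difference between days 7 and 1, -0.94 (adjusted p = 0.335), followed by the co-activator gene Maml1 (-0.44, adjusted p = 0.306). There 0 of 77 passed in limma, and 7 had an unadjusted p under 0.05, beside 10.6% of all genes. Dlk1 read 9.67 on the null day 1 array and between 8.09 and 8.57 on the other 5. Neurod1 (-0.96, adjusted p = 0.0383) and Neurod4 (-0.80, adjusted p = 0.0096) were the 2 of 77 called between days 14 and 7, both lower. Without the 2 arrays with high Xist and with age linear they stood at -0.58 (adjusted p = 0.0924) and -0.40 (adjusted p = 0.109), and neither was called. Without the wildtype day 14 array Neurod1 stood at -0.49 (adjusted p = 0.268), and without the null day 7 or the wildtype day 7 array it also missed the threshold. Neurod4 missed it without the wildtype day 7 (-0.73, adjusted p = 0.0515) or the wildtype day 14 array (-0.70, adjusted p = 0.06). Neurod1 read 8.90 on the null and 7.93 on the wildtype array of day 14, and 9.34 to 9.58 on the 4 earlier arrays. For slopes 0 of 77 passed in limma with 4 at an unadjusted p under 0.05 (2.99% of all genes), led by Dlk1 (-1.53) and Neurod1 (1.02), each with adjusted p = 1.00.

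Markers of other cells moved with age beside these genes. All 11 proliferation genes were lower at day 14 than at day 1 (median -0.91), with array means of 7.94 and 7.95 at day 14 and 8.78 and 9.19 at day 1 in null and wildtype. Of 13 neuroblast genes 8 were lower and 1 higher (median -0.66). Of 8 astrocyte genes 7 were higher and 1 lower (median 0.99), and of 9 oligodendrocyte genes 6 were higher (median 2.98). Of 8 microglia genes 6 were higher (median 0.74), and of 7 neuron genes 5 were higher (median 0.67). Ependymal markers had 1 higher and 2 lower of 10, and choroid plexus markers 1 lower of 10. Of 9 endothelial and mural genes, cells in which Hey1 is also active, 1 was higher (Rgs5, median of the list 0.21), with means of 8.34 to 8.87 on the null arrays and 8.65 to 8.79 on the wildtype arrays. Among 9 radial glia and stem cell genes 2 were higher and 1, Nes, was lower (median 0.08). Without the 2 arrays with high Xist and with age linear, 8 of 11 proliferation genes and 8 of 13 neuroblast genes were called lower, and 7 of 8 astrocyte, 6 of 9 oligodendrocyte, 5 of 8 microglia, 4 of 7 neuron and 2 of 9 endothelial and mural genes were called higher. In that fit 3 of 9 radial glia genes and 3 of 10 choroid plexus genes were higher, and ependymal markers had 1 higher and 2 lower. Microglia calls dropped to 3 and 2 without the null day 1 and the null day 14 array, and neuron calls to 3 without the null day 14 array. RMA values have no true 0, so no marker could be called absent. The part of these shifts in the changes of Notch1 and Hey1 was not tested.

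No member spanned 1 log2 unit over the 6 arrays, the minimum fixed for naming genes of like pattern. The 2 with the widest span, Hey1 (0.89) and Notch1 (0.78), were therefore looked at after their values were seen. The measure was the root mean square difference of levels over the 6 arrays, each gene centred on its own mean. Nearest to Hey1 were Mmp19 (0.021), Strn (0.047) and D7Ertd443e (0.051), and nearest to Notch1 were Gpc1 (0.026), Ptk7 (0.027) and Asap2 (0.031). With 6 arrays and 19938 genes such near profiles are a description only. None of the 9 members was among the 52 probe sets of the authors' deposited table.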

How the data were processed

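The 6 Affymetrix whole-transcript arrays were deposited as log2 values of 35557 probe sets. The submitters' processing notes name RMA (software version not given in the sources used here). The deposited list of 52 probe sets, in linear intensity by the authors, was used only to look up members. Per the labels, laser captured tissue gave Trizol RNA, amplified cRNA and biotin-labelled cDNA. Of the probe sets 21789 had 1 gene symbol, 1621 several and 12147 none. The brightest probe set per gene was kept, without a filter on dim genes.

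Tests used limma 3.58.1 in R 4.3.3: lmFit and eBayes on all 19938 genes, with terms for genotype and for age in 3 levels (2 residual and 7.51 prior degrees of freedom), and for slopes genotype, day and their product. P-values are 2-sided, adjusted by Benjamini-Hochberg over all genes, threshold 0.05. The code was tested on simulated data. Tables and figures used Python 3.11.15. Members, lists, tests and alternatives were chosen with earlier results of these data known. All members were named. Of the wider list, Foxj1 was named, then per comparison up to 6 passing genes per direction, or else the 2 with the largest difference.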

Additional observations from a re-analysis of the deposited data

How the results depend on the processing

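For the genotype comparison and for slopes, 0 members were called in all settings tried. Leaving out the null or the wildtype array of an age gives the same genotype fit, since each age is 1 pair. Counting each distinct fit once, the sign of a member's genotype difference turned in 11 of 123 values and that of a slope difference in 22 of 141, none of them called. For day 14 against day 1, where 2 members were called, 4 were called with each array centred on its median (Jag1 and Rbpj added). With genes below the median level left out 4 were called as well. That setting tests fewer genes and leaves out 3 members, Hes1, Dll1 and Dll3. The count was 1 without the 2 arrays with high Xist and with age linear, and leaving out single arrays gave 1 to 3. The cause of these shifts was not tested beyond that. No called difference turned its sign. For day 7 against day 1 the count was 1 (Hey1) without the 2 arrays with high Xist, where a linear age makes the 3 age comparisons 1 test. For day 14 against day 7 it was 0 with genotype left out and 0 with Xist as a covariate, and 0 to 1 without single arrays. The wider list, counted after the data were seen, had 12 called between days 14 and 1, 5 without the 2 arrays with high Xist, and 3 to 14 without single arrays. With 2 residual degrees of freedom, or 1 where an array is left out, small differences cannot be resolved.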
